A study of Mus musculus with 6 samples.

Results

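Iron uptake, storage and export was followed through 10 genes in cultured mouse mast cells: Tfrc, Steap3, Slc11a2, Slc11a1, Fth1, Ftl1, Slc40a1, Hmox1, Aco1 and Ireb2. They were found as noncontrol probes that carry these gene names in the scanner output, which gave 16 probes, out of 39416 probes and 29590 genes measured in all. The set was chosen by the low signal of Tfrc in the coculture labelled Pla2g3-/-. The values of that array are therefore given as a description and support nothing about the choice.

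Messenger RNA was measured on 6 single-colour Agilent arrays, each hybridised with RNA pooled from 3 samples, so every group is 1 array and no difference has a replicate check. The mast cells were bone marrow-derived mast cells, grown in interleukin-3 at 10 ng/ml. In 4 groups they had spent 4 days on fibroblasts of the established mouse line Swiss 3T3, with stem cell factor at 100 ng/ml. These cocultures were Pla2g3-/- labelled mast cells on WT fibroblasts, Pla2g3+/+ mast cells on WT fibroblasts, WT mast cells on Lpar1-/- fibroblasts and WT mast cells on Lpar1+/+ fibroblasts. The other 2 groups were Pla2g3-/- labelled and Pla2g3+/+ mast cells without fibroblasts, for which stem cell factor is not mentioned in the sources used here. Pla2g3 codes for a phospholipase A2 that is secreted, and Lpar1 for a lysophosphatidic acid receptor. The Lpar1-/- fibroblasts were made with Cas9 and derived from single-cell cloning. The effect of Lpar1 loss and that of the line or clone therefore cannot be told apart. The promoter or construct behind the Pla2g3 deletion is not given. Mast cells were recovered either as nonadherent cells or with CD117 beads, and which of these gave the arrayed RNA is not given.

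Most iron enters dividing cells bound to transferrin, which the transferrin receptor Tfrc carries into endosomes. There the reductase Steap3 converts ferric to ferrous iron, and the transporter Slc11a2 passes it to the cytosol, where ferritin, built from Fth1 and Ftl1 chains, stores what is not used. Slc40a1 (ferroportin) exports iron, Slc11a1 moves metal ions out of the phagosomes of macrophages and other phagocytes, and Hmox1 frees iron from haem. Aco1 and Ireb2 are the iron regulatory proteins, which bind iron-responsive elements in mRNAs. Their binding protects the Tfrc mRNA from decay and blocks translation of the ferritin mRNAs when iron is scarce, so the ferritin part of this control acts on protein and is not read by an mRNA array.

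Sequences are given for some of the probes that read Tfrc, Steap3 and Ireb2. They come from the array design, 5′ to 3′ in the sense of the transcript and without capitals. Slc11a1 and Slc40a1 had wider ranges over the arrays than Ireb2, and their probes are given by position only. Coordinates are on mm9, as the files list them, and whether a probe lies in coding or untranslated sequence is not stated, as no annotation of that build was used. The first lies at chr16:32620470-32620529, and the second within chr16:32624877-32625093, an interval longer than the probe. The Steap3 probe lies at chr1:122124269-122124328 on the minus strand and the Ireb2 probe at chr9:54756566-54756625.
Tfrc probe A_65_P06446: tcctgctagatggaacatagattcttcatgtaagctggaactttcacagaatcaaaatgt
Tfrc probe A_51_P167876: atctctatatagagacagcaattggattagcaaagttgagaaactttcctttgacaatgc
Steap3 probe A_55_P2096883: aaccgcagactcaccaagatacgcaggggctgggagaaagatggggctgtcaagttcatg
Ireb2 probe A_52_P77332: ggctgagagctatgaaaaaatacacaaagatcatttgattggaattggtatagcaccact

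The brightest Tfrc probe, A_52_P228236, lies at chr16:32632255-32632314 and was spotted 10 times on each array. The brightest Steap3 probe, A_55_P2096887, lies at chr1:122123244-122123303. The remaining probes lie at chr15:100218333-100218392 and chr15:100240516-100240575 (Slc11a2), chr1:74432161-74432220 (Slc11a1), chr19:10059485-10059544 (Fth1), chr7:52713309-52713368 and chr7:52714014-52714495 (Ftl1), chr1:45965255-45965314 (Slc40a1), chr8:77624207-77624266 and chr8:77620797-77620856 (Hmox1), and chr4:40145780-40145839 (Aco1).

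The promoter of Tfrc is shown because Tfrc is the gene of the set with the widest range over the arrays. RefSeq on GRCm38.p6 gives 2 Tfrc starts, on the plus strand, whose preceding 250 bases are the overlapping windows chr16:32608646-32608895 and chr16:32608872-32609121. Capitals mark a CCAAT box in the first, and in the second, in this order, an ACGTG core of the hypoxia response element, a TATAA box and a GGGCGG GC box.
Tfrc promoter, upstream start: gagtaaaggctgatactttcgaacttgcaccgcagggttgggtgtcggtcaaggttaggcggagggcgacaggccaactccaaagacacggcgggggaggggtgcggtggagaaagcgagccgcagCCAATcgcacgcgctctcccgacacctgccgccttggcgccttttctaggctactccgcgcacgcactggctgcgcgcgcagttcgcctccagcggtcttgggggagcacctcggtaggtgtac
Tfrc promoter, downstream start: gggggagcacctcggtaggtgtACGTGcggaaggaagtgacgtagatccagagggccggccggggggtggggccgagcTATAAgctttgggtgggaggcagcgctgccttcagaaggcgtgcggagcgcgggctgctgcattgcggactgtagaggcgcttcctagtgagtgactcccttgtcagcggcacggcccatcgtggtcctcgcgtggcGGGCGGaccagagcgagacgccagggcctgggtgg
Promoters were found for 7 of the 10 genes (12 entries), and letters were searched on both strands over the 250 bases before and 50 after each start. ACGTG was present in 19.6% of all 32851 promoters and, among the genes of the set, in Tfrc. CCAAT was present in 37.4% of all promoters and in Tfrc, Steap3, Fth1 and Ftl1. TATAA was present in 24.9% of all promoters and in Tfrc, Fth1 and Ftl1, and GGGCGG in 35.7% and in Tfrc, Steap3, Fth1, Ftl1, Aco1 and Ireb2. The E-box CACGTG (7.15% of all promoters), which contains ACGTG, the antioxidant response core TGACNNNGC (12.4%) and the STAT5 core TTCNNNGAA (8.30%) were not matched in any of the 12 entries. A match here describes letters in the window and not a bound site.

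The 75th percentile of intensity per array lay between 1230 and 1520 and the share of spots well above background between 70.7% and 80.4%. Levels below are log2 intensity minus that percentile of the same array, so 0 is the array's 75th percentile and values of different probes are not set against each other. The scanner's error model put the error of 1 spot at about 0.14 on this scale and that of a difference at about 0.20, which leaves out the spread between cultures. The signal of Pla2g3 itself went against the genotype label: its brightest probe stood at -1.84 in the array labelled Pla2g3-/- against -7.31 in Pla2g3+/+ coculture, and at 0.51 against -6.31 without fibroblasts. The other 2 Pla2g3 probes were also higher under the Pla2g3-/- label, at -3.51 against -9.09 and -6.60 against -8.11 in coculture, with both Pla2g3+/+ values not well above background. In the cocultures of WT mast cells, the brightest probe stood at -4.85 on Lpar1-/- and -6.58 on Lpar1+/+ fibroblasts. The other 2 probes had -8.45 and -8.13, both not well above background, and -7.35 and -7.11 there. Whether the probes lie in the deleted stretch is not given, and whether the labels were exchanged was not tested. An exchange would turn the sign of every difference between the Pla2g3 labels, so these arrays are called labelled Pla2g3-/- throughout, and Pla2g3+/+ and wild type of their partners are likewise the words of the labels. Lpar1 was deleted in the fibroblasts, and its probe in mast cell RNA does not check that label. All 12 mast cell markers were above background on every array. Both arrays without fibroblasts were on one slide and the 4 cocultures on another, and stem cell factor is named for the cocultures only. Effects of fibroblasts, stem cell factor and slide cannot be told apart. In pooled RNA, fewer cells of a type and less RNA per cell cannot be told apart either.

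Over the 6 arrays, the range of the 10 genes was taken at the probe that stands for each, the one with the highest mean. Tfrc spanned 15.1-fold, Steap3 9.26-fold, Slc11a1 7.59-fold, Slc40a1 7.22-fold and Ireb2 2.86-fold. Hmox1 spanned 1.66-fold, Slc11a2 1.62-fold, Aco1 1.37-fold, Ftl1 1.32-fold and Fth1 1.18-fold. Neighbours in this order such as Slc11a1 and Slc40a1 differ by less than the error of a difference. Between both cocultures of wild-type cells, a yardstick for the spread from array to array, no member differed by 2-fold and the widest difference was 0.27 on the log2 scale (Hmox1). Over all genes, 0.983% differed by 2-fold in that pair (0.803% higher, 0.179% lower), with a standard deviation of 0.40.

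**Figure D1:**
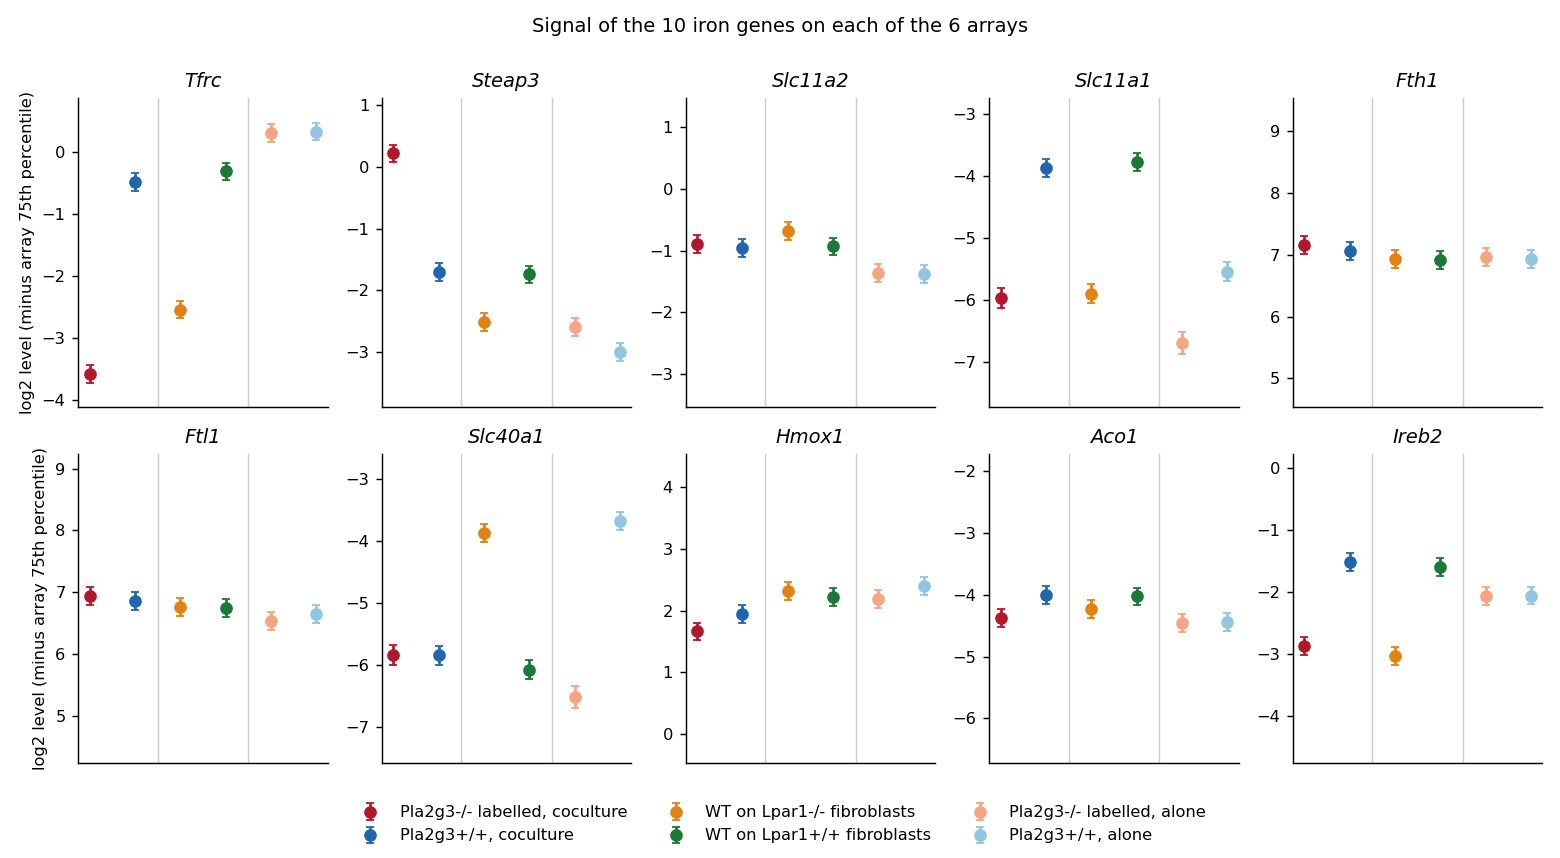
Level of each of the 10 genes on each of the 6 arrays (log2 intensity minus the array's 75th percentile, vertical axis), with bars for the scanner's spot error. The Tfrc panel has its lowest points in the labelled Pla2g3-/- coculture (-3.58) and the Lpar1-/- coculture (-2.54), and the Fth1 panel stays between 6.91 and 7.15.

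The first step of uptake, the transferrin receptor, showed the largest range. The brightest Tfrc probe had 104 intensity units and a level of -3.58 in the labelled Pla2g3-/- coculture, against 1054 units and -0.48 in the Pla2g3+/+ coculture. In the other pair of cocultures it stood at -2.54 on Lpar1-/- fibroblasts against -0.31 on Lpar1+/+ fibroblasts, and without fibroblasts at 0.32 under the Pla2g3-/- label against 0.34 in Pla2g3+/+ cells. The low samples were thus 1 coculture of each pair, and both arrays without fibroblasts and both wild-type cocultures were high. The 10 spots of this probe scattered with an SD between 0.05 and 0.10 within an array, far under these gaps.

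In fold terms, Tfrc was 8.60-fold lower in the labelled Pla2g3-/- coculture than in Pla2g3+/+ coculture (log2 difference -3.10 ± 0.20, spot error). The same gene was 4.70-fold lower with Lpar1-/- than with Lpar1+/+ fibroblasts (-2.23 ± 0.20). The rule that chose the set does not name this pair, but the members were chosen with earlier results of these data known. Without fibroblasts the genotype labels differed by -0.02 ± 0.20, which is within the spot error. Relative to the same cells without fibroblasts, Tfrc was 14.9-fold lower in coculture under the Pla2g3-/- label and 1.76-fold lower in Pla2g3+/+ cells, and the difference between both coculture effects was -3.08 ± 0.29.

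At the other Tfrc probes the same 2 cocultures were the lowest arrays. A_65_P06446 was 5.82-fold lower in the labelled Pla2g3-/- than in the Pla2g3+/+ coculture and 3.74-fold lower on Lpar1-/- than on Lpar1+/+ fibroblasts. A_51_P167876 was not well above background in the labelled Pla2g3-/- coculture, where it was at least 4.45-fold lower than in Pla2g3+/+ coculture, a bound taken against the dim probe's own signal. The fold was smaller at the dimmer probes. With normexp background correction, the Tfrc difference was -2.48 between the labelled Pla2g3-/- and Pla2g3+/+ cocultures, and that of the Lpar1 pair stayed past 2-fold.

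Genes of cell division were low in the same 2 cocultures. The summed level of 14 proliferation genes, in multiples of the array's 75th percentile, was 48.8 in the labelled Pla2g3-/- against 174 in the Pla2g3+/+ coculture and 36.7 on Lpar1-/- against 165 on Lpar1+/+ fibroblasts. All 14 were above background on every array, and 13 of them were at least 2-fold lower in each of these 2 comparisons. Over all genes, 9.11% were higher and 10.4% lower in the first comparison, and 11.3% and 8.82% in the second. Between the labels without fibroblasts, 0.437% were higher and 1.60% lower. These shares also stand beside the counts of the marker lists and other gene lists below. Without fibroblasts the sums were 86.7 under the Pla2g3-/- label and 77.9 in Pla2g3+/+ cells, with Tfrc levels of 0.32 and 0.34. The part of cell division in the Tfrc difference was not tested.

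Transcripts of fibroblasts were also present in the cocultures. The summed level of the 12 fibroblast markers was 14.5 in the labelled Pla2g3-/- and 33.0 in the Pla2g3+/+ coculture, 31.2 with Lpar1-/- and 34.2 with Lpar1+/+ fibroblasts, and 0.158 and 0.355 without fibroblasts under the Pla2g3-/- label and in Pla2g3+/+ cells. Between 5 and 11 of the 12 were above background per array, and Lum was above background on no array. Between the Pla2g3 cocultures, 5 of the 10 compared were at least 2-fold lower and none higher, among them Dcn (5.46-fold), Fn1 (3.27-fold) and Col3a1 (2.51-fold). Between the Lpar1 cocultures, 3 of the 11 compared were higher and none lower, namely Thy1 (196-fold), Postn (at least 15.9-fold) and Pdgfrb (2.18-fold). The part of fibroblast RNA in the Tfrc difference was not tested.

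Some mast cell markers were lower in the same 2 cocultures as Tfrc. Of the 12 mast cell markers, 4 were at least 2-fold lower and none higher in each pair. The tryptase gene Tpsab1 had 0.61 in the labelled Pla2g3-/- against 4.21 in the Pla2g3+/+ coculture (log2 difference -3.60), and was 23.7-fold lower on Lpar1-/- than on Lpar1+/+ fibroblasts. Hdc, which makes histamine, was 4.88-fold and 9.74-fold lower. Their summed level was 671 against 729 in the first pair and 574 against 702 in the second, and 536 under the Pla2g3-/- label against 553 in Pla2g3+/+ cells without fibroblasts. The part of these genes in the Tfrc difference was not tested.

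The 6 basophil markers summed to 28.2 in the labelled Pla2g3-/- against 36.5 in the Pla2g3+/+ coculture, and to 23.9 on Lpar1-/- against 36.4 on Lpar1+/+ fibroblasts. Without fibroblasts the sum was 31.6 under the Pla2g3-/- label against 30.5 in Pla2g3+/+ cells. In the first pair 2 of 5 compared were at least 2-fold lower and none higher, and in the second 2 of 6 were higher and 1 lower. Without fibroblasts 3 of 5 were lower and none higher.

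**Figure D2:**
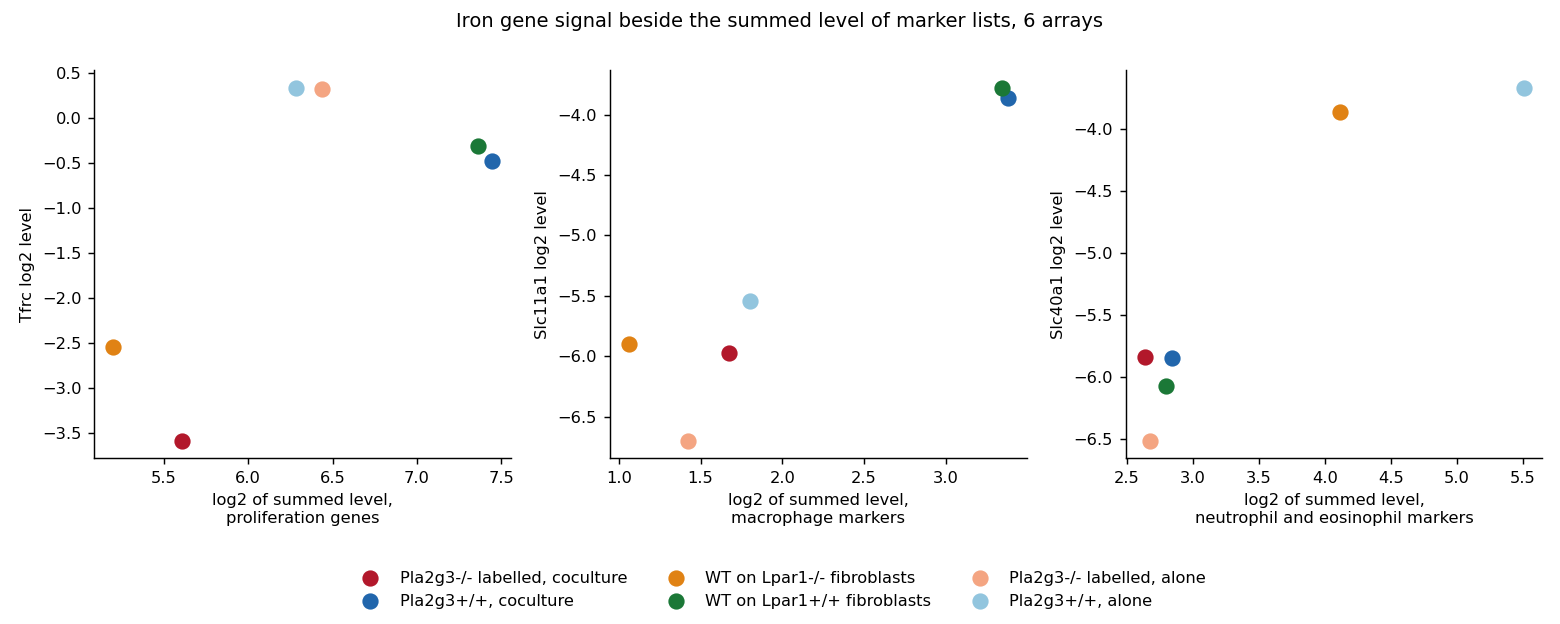
Levels of Tfrc, Slc11a1 and Slc40a1 (vertical axes, log2) on the 6 arrays against the log2 summed level of proliferation, macrophage, and neutrophil and eosinophil genes (horizontal axes). Before the log, the 2 cocultures with low Tfrc have proliferation sums of 48.8 and 36.7, against 174 and 165 in the wild-type cocultures. The arrays without fibroblasts have sums of 86.7 and 77.9 and Tfrc levels of 0.32 and 0.34.

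Among known regulators of Tfrc transcription, Myc had a similar profile. Its level was -0.89 in the labelled Pla2g3-/- coculture against 1.95 in the Pla2g3+/+ coculture, and -1.03 on Lpar1-/- against 1.85 on Lpar1+/+ fibroblasts. Without fibroblasts it stood at 2.20 under the Pla2g3-/- label and 2.15 in Pla2g3+/+ cells. Myc was thus 7.18-fold and 7.34-fold lower in the first and second of these cocultures and, like Tfrc, low on the same 2 arrays. Mycn, its close relative, was 7.83-fold and 14.1-fold lower in the same comparisons. Hif1a, which drives Tfrc in low oxygen, differed by -0.72 and -0.48, and Epas1 (HIF-2 alpha) by -0.17 and -0.23, all within 2-fold. Stat5a, which takes part in Tfrc expression in mouse erythroid cells, went the other way and was 2.88-fold and 2.38-fold higher.

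By the distance between centred log2 profiles over the 6 arrays, among 19743 genes above background on all of them, the profiles nearest to Tfrc belonged to 2610318N02Rik (distance 0.64), Aldh1l2 (0.71), Trib3 (0.77), Pycr1 (0.79), 1600014C23Rik (0.82), C230071I02Rik (0.82), Nbea (0.89) and Ptges3l (0.96). Myc was ninth in this order, at 0.97. Aldh1l2, an enzyme of mitochondrial folate metabolism, had levels of -4.66 in the labelled Pla2g3-/- and -1.11 in the Pla2g3+/+ coculture, and -3.81 on Lpar1-/- and -0.71 on Lpar1+/+ fibroblasts. Pycr1, an enzyme of proline synthesis, was -6.71 against -3.89 in the first pair and -5.37 against -3.28 in the second. No other member was among these. Ireb2 had rank 908 and Slc11a1 rank 12116, and the ranks of the remaining members were not taken. The distances describe 6 arrays that share cells and slides and carry no p.

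The endosomal reductase Steap3 differed between its probes. The brighter one, A_55_P2096887, was high on a single array, at 0.21 in the labelled Pla2g3-/- coculture against -1.70 in the Pla2g3+/+ coculture, a 3.78-fold difference. It stood at -2.52 on Lpar1-/- against -1.74 on Lpar1+/+ fibroblasts, and at -2.60 under the Pla2g3-/- label against -3.00 in Pla2g3+/+ cells without fibroblasts. The probe A_55_P2096883 had -1.94 and -1.99 in the labelled Pla2g3-/- and Pla2g3+/+ cocultures, a difference of 0.05 ± 0.20, so the excess of the first probe was not seen at the second. On Lpar1-/- fibroblasts that second probe was 3.06-fold lower than on Lpar1+/+ fibroblasts, where the first differed by -0.77 ± 0.20. Without fibroblasts the second probe stood at -5.09 under the Pla2g3-/- label against -4.31 in Pla2g3+/+ cells, opposite in direction to the first.

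At both Steap3 probes, cocultures were above the same cells without fibroblasts. Relative to the same cells alone, the labelled Pla2g3-/- coculture was 7.02-fold and 8.88-fold higher at the brighter and dimmer probe, and the Pla2g3+/+ coculture 2.45-fold and 5.01-fold higher. With the mean of both probes, Steap3 differed by 0.98 between the labelled Pla2g3-/- and Pla2g3+/+ cocultures and no longer reached 2-fold, and by -1.19 in the Lpar1 pair, where it then did. With normexp correction the difference in Pla2g3+/+ cells between coculture and cells alone was 0.99.

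**Figure D3:**
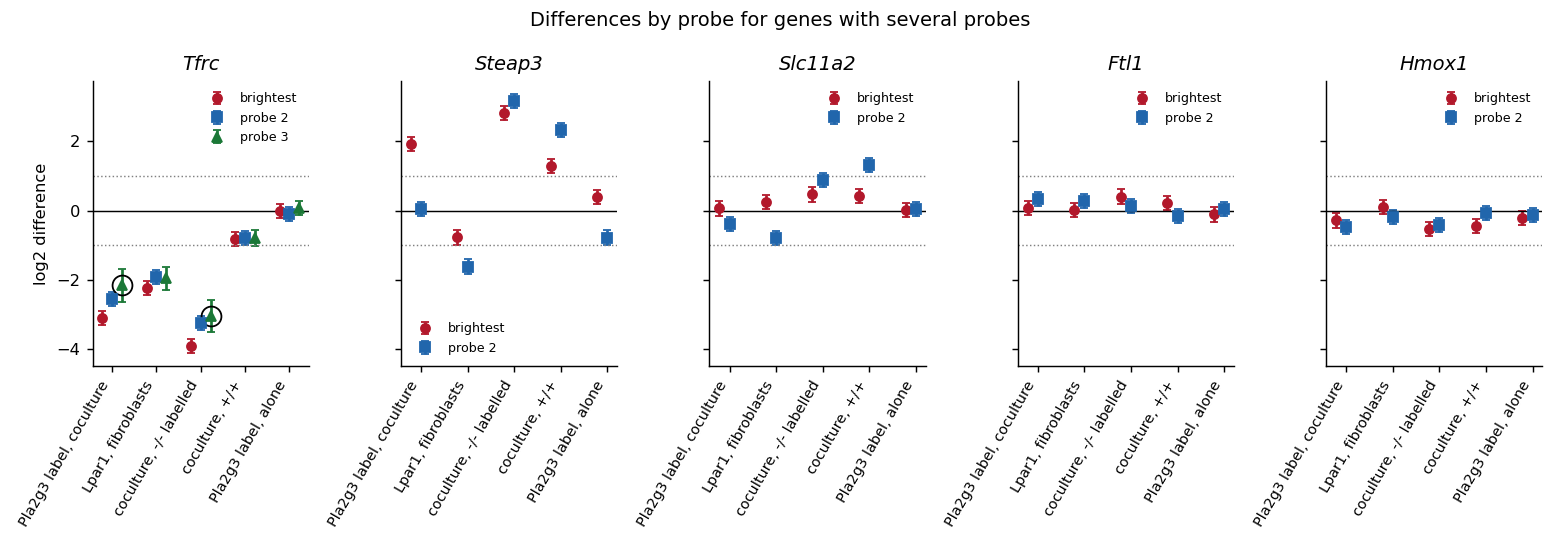
Log2 difference at each probe of the 5 genes with several probes, for the comparisons named on the axis, with bars for the spot error and a black ring around bounds. The 3 Tfrc probes lie below -1.90 in both the Pla2g3 and the Lpar1 coculture comparison, while the 2 Steap3 probes lie apart at 1.92 and 0.05 in the first.

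Slc11a2, which carries ferrous iron out of the endosome, stayed close to its level in wild-type cocultures. Its brighter probe had -0.90 in the labelled Pla2g3-/- and -0.96 in the Pla2g3+/+ coculture, -0.69 on Lpar1-/- and -0.93 on Lpar1+/+ fibroblasts, and -1.36 and -1.38 without fibroblasts under the Pla2g3-/- label and in Pla2g3+/+ cells. The dimmer probe differed by -0.38 ± 0.20 in the first pair and -0.78 ± 0.20 in the second. That probe was 2.47-fold higher in the Pla2g3+/+ coculture than in the same cells alone, where the brighter one was 1.34-fold higher, so a 2-fold difference rests on 1 of 2 probes.

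Slc11a1, the phagosomal metal transporter, separated the cocultures by pair. Its level was -5.97 in the labelled Pla2g3-/- against -3.86 in the Pla2g3+/+ coculture, and -5.90 on Lpar1-/- against -3.78 on Lpar1+/+ fibroblasts. Without fibroblasts it was -6.70 under the Pla2g3-/- label against -5.54 in Pla2g3+/+ cells. The wild-type cocultures were high and the other 4 arrays low, at 11.8 to 27.2 intensity units against 101 and 111 units.

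Slc11a1 was 4.32-fold lower in the labelled Pla2g3-/- than in the Pla2g3+/+ coculture and 4.37-fold lower with Lpar1-/- than with Lpar1+/+ fibroblasts. It was 3.21-fold higher in Pla2g3+/+ coculture than in Pla2g3+/+ cells alone. Because the gene is dim, the normexp correction brought the first difference to -0.70, the coculture difference in Pla2g3+/+ cells to 0.69 and the one between labels without fibroblasts to -0.29, all under 2-fold, and left the Lpar1 difference at -1.04.

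The summed level of macrophage markers was high on the same 2 arrays as Slc11a1, but not every marker took that side. The summed level of 12 macrophage markers was 3.18 in the labelled Pla2g3-/- against 10.4 in the Pla2g3+/+ coculture, 2.08 on Lpar1-/- against 10.2 on Lpar1+/+ fibroblasts, and 2.68 under the Pla2g3-/- label against 3.48 in Pla2g3+/+ cells without fibroblasts. Between 9 and 11 of the 12 were above background per array, and Vsig4 was above background on none. Mrc1, a mannose receptor of macrophages, had -9.21 (not well above background) against -2.37 in the first pair and -7.60 against -2.37 in the second. Cd68, a lysosomal protein of macrophages, made up most of the sum in the wild-type cocultures, with levels of 1.24 against 3.13 in the first pair and 0.08 against 3.12 in the second. In the first pair 5 of 10 compared were at least 2-fold lower, none was higher and 5 lay within 2-fold (median -0.93), and in the second 4 of 11 were lower, none was higher and 7 lay within 2-fold (median -0.26). Adgre1, the macrophage marker F4/80, had -2.69 against -2.85 in the first pair and -2.78 against -2.83 in the second. C1qb, a complement gene of macrophages, stayed between -4.66 and -4.48 on all 6 arrays. The part of such cells in the Slc11a1 difference was not tested.

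The ferritin genes, which store iron, were nearly level. Fth1 had 7.15 in the labelled Pla2g3-/- and 7.06 in the Pla2g3+/+ coculture, 6.93 on Lpar1-/- and 6.91 on Lpar1+/+ fibroblasts, and 6.97 and 6.94 without fibroblasts under the Pla2g3-/- label and in Pla2g3+/+ cells. Its largest difference in 7 comparisons was 0.19. Ftl1 at its brighter probe had 6.94 and 6.85, 6.76 and 6.75, and 6.53 and 6.64 in the same order of arrays. Its dimmer probe had 6.51 and 6.18, 6.52 and 6.25, and 6.38 and 6.33. The largest ferritin difference was 0.40, for Ftl1 in the labelled Pla2g3-/- coculture over the same cells alone, and no spot on any array was saturated. Ferritin genes have many near-identical copies in the mouse genome, so which locus a probe reads is uncertain. Ncoa4, the receptor that delivers ferritin to lysosomes, likewise differed by 0.14 between the Pla2g3 cocultures and by -0.05 between the Lpar1 cocultures.

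**Figure D4:**
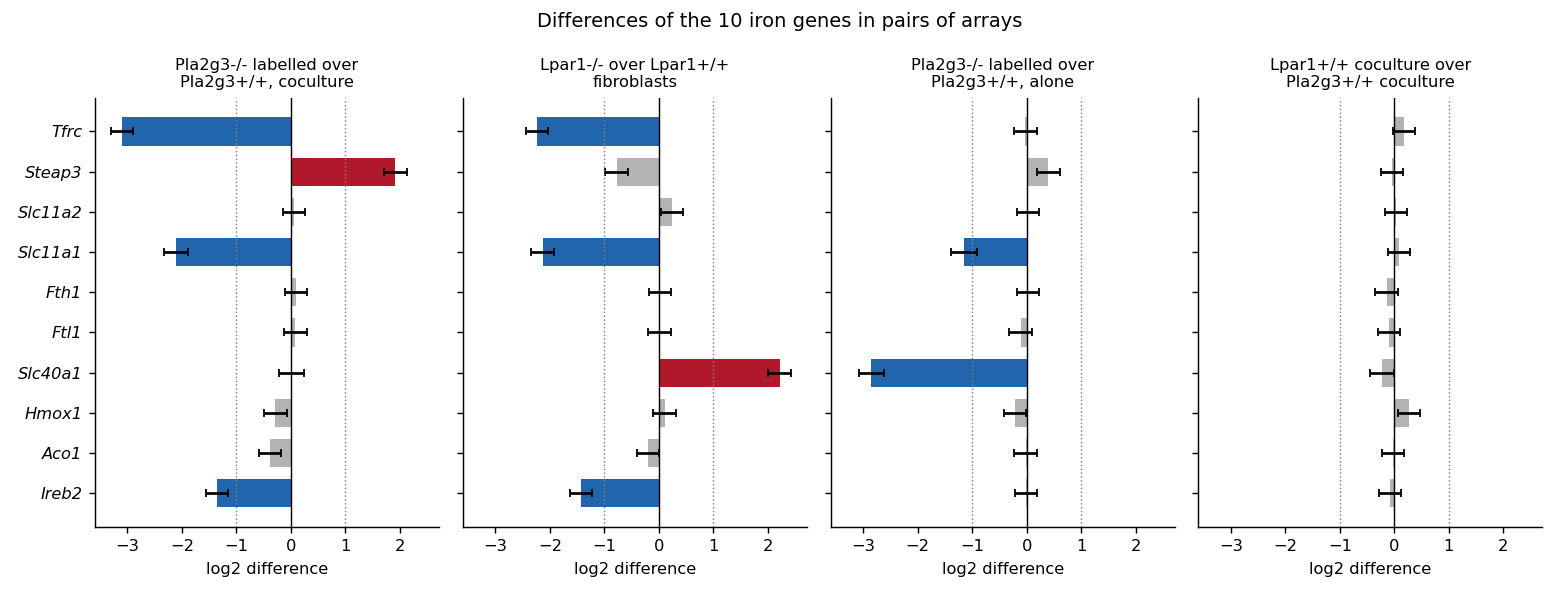
Log2 difference of each member at its brightest probe in 4 comparisons, as horizontal bars from 0 with the spot error and colour for at least 2-fold. Tfrc, Slc11a1 and Ireb2 point below -1 in both coculture comparisons, and Fth1 and Ftl1 stay within 0.10 of 0 there.

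Slc40a1, the exporter, behaved unlike the other members. Its level was -5.84 in the labelled Pla2g3-/- and -5.85 in the Pla2g3+/+ coculture, a difference of 0.01 ± 0.22. On Lpar1-/- fibroblasts it was -3.86 against -6.08 on Lpar1+/+ fibroblasts, 4.65-fold higher. Without fibroblasts it was -6.52 under the Pla2g3-/- label against -3.67 in Pla2g3+/+ cells, 7.22-fold lower. Hence 2 arrays were high, at 100 intensity units each, and the other 4 lay between 13.4 and 25.5 units. Relative to the same cells alone, Slc40a1 was 4.54-fold lower in the Pla2g3+/+ coculture and 1.60-fold higher under the Pla2g3-/- label.

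Transcripts of granulocytes were high on the same 2 arrays. The summed level of 12 neutrophil and eosinophil markers was 17.3 on Lpar1-/- against 6.96 on Lpar1+/+ fibroblasts and 6.39 under the Pla2g3-/- label against 45.4 in Pla2g3+/+ cells without fibroblasts. In the labelled Pla2g3-/- and Pla2g3+/+ cocultures, where Slc40a1 differed by 0.01, the sums were 6.22 and 7.16. Between 9 and 12 of the 12 markers were above background per array. Of those compared, 8 of 10 were at least 2-fold higher and none lower in the Lpar1 pair, 9 of 12 were lower and none higher under the Pla2g3-/- label without fibroblasts, and 1 of 10 was higher and 3 were lower between the Pla2g3 cocultures. S100a9, an abundant neutrophil gene, had 3.05 against 1.37 in the Lpar1 pair and 0.38 against 4.65 in the pair without fibroblasts. Their part in the Slc40a1 difference was not tested. Under normexp correction the differences of Slc40a1 were smaller, at 1.06 for the Lpar1 pair, -1.13 for the pair without fibroblasts and -1.11 for coculture in Pla2g3+/+ cells, and still past 2-fold.

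Hmox1, which breaks down haem, varied little. Its brighter probe had 1.66 in the labelled Pla2g3-/- and 1.95 in the Pla2g3+/+ coculture, 2.32 on Lpar1-/- and 2.22 on Lpar1+/+ fibroblasts, and 2.18 and 2.40 without fibroblasts under the Pla2g3-/- label and in Pla2g3+/+ cells. Its largest difference over both probes and all comparisons was 0.52 in size, lower in the labelled Pla2g3-/- coculture than in the same cells alone. Bach1, a haem-sensing repressor of Hmox1, was 1.57-fold higher in the labelled Pla2g3-/- than in the Pla2g3+/+ coculture and 1.47-fold higher on Lpar1-/- than on Lpar1+/+ fibroblasts. Nfe2l2 (NRF2), its activating counterpart, differed by -0.15 and -0.41.

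Other NRF2 target genes differed more than Hmox1. Nqo1, a quinone reductase, had 1.06 against -0.96 in the Pla2g3 cocultures and 1.60 against -0.91 in the Lpar1 cocultures, 4.06-fold and 5.69-fold higher. Gclm, the modifier subunit of glutathione synthesis, was 4.07-fold and 5.76-fold higher, and Gclc, the catalytic subunit, 3.64-fold and 3.31-fold higher. Slc7a11, the cystine importer, was 4.99-fold and 3.15-fold lower instead. Of the 13 genes of this list, 3 were at least 2-fold higher and 1 was lower in the first comparison, and 3 were higher and 2 lower in the second.

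The iron regulatory proteins differed from each other. Ireb2 had -2.87 in the labelled Pla2g3-/- against -1.51 in the Pla2g3+/+ coculture, and -3.03 on Lpar1-/- against -1.60 on Lpar1+/+ fibroblasts. Without fibroblasts it had -2.07 under the Pla2g3-/- label and -2.06 in Pla2g3+/+ cells. As for Tfrc, 1 coculture of each pair was low and the arrays without fibroblasts did not differ. Unlike Tfrc, the wild-type cocultures were above the arrays without fibroblasts, by 1.46-fold in Pla2g3+/+ cells.

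In fold terms, Ireb2 was 2.57-fold lower (-1.36 ± 0.20) in the first pair and 2.70-fold lower (-1.43 ± 0.20) in the second. Aco1 had -4.38 and -4.00 in the first pair, -4.23 and -4.03 in the second, and -4.45 and -4.43 without fibroblasts, with no difference over 0.44 in size. Fbxl5, which targets the Ireb2 protein for breakdown when iron is ample, differed by -0.39 and -0.34 in both coculture pairs.

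Counted over the members, 4 of 10 differed by at least 2-fold between the labelled Pla2g3-/- and the Pla2g3+/+ coculture, against 19.5% of all genes compared. The higher one was Steap3 (9.11% of all genes were higher) and the lower ones were Tfrc, Slc11a1 and Ireb2 (10.4% were lower). The median difference of the members was -0.14, beside -0.08 over all genes. Because Tfrc in this array chose the set, nothing is read from the count.

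Between Lpar1-/- and Lpar1+/+ fibroblasts, 4 of 10 also differed by at least 2-fold, against 20.1% of all genes (11.3% higher, 8.82% lower). Slc40a1 was higher, and Tfrc, Slc11a1 and Ireb2 were lower. The members' median was -0.09, beside -0.05 over all genes. The comparison has no array in common with the one between the Pla2g3 labels. It is still not independent of the choice, as the members were chosen with earlier results of these data known.

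Coculture was also set against cells alone. Under the Pla2g3-/- label, Steap3 was higher and Tfrc lower, 2 of 10 against 18.7% of all genes (11.4% higher, 7.30% lower), with a median of 0.30 beside 0.12 over all genes. In Pla2g3+/+ cells, Steap3 and Slc11a1 were higher and Slc40a1 lower, 3 of 10 against 20.6% of all genes (13.0% higher, 7.52% lower), with a median of 0.32 beside 0.135. The 0.12 and 0.135 are the shift of all genes under this scaling, relative to which the member values stand. Of all genes past 2-fold, 60.9% were higher under the Pla2g3-/- label and 63.4% in Pla2g3+/+ cells, against 50.3% and 48.8% after quantile normalisation. No called member changed its direction under quantile normalisation.

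Without fibroblasts, the Pla2g3-/- label went with 2 lower members, Slc11a1 and Slc40a1, and none higher, against 2.03% of all genes past 2-fold (0.437% higher, 1.60% lower). At the probes that stand for them, the other 8 lay within 0.40 of 0. The dimmer Steap3 probe was 1.71-fold lower under the label (-0.78 ± 0.21), while the brighter one differed by 0.40. For the difference between both coculture effects, 4 of 10 passed 2-fold, against 18.8% of all genes (9.81% higher, 8.97% lower). They were Tfrc (-3.08), Ireb2 (-1.35), Steap3 (1.52) and Slc40a1 (2.86). Each of these rests on 4 arrays, among them the one that chose the set.

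Beyond the 10 genes, 17 others of iron uptake and reduction were looked at, of which 15 were compared between the Pla2g3 cocultures and 16 between the Lpar1 cocultures. In the first, 1 was at least 2-fold higher and 4 lower (median -0.25, beside -0.08 over all genes), and in the second 3 were higher and 3 lower (median -0.25, beside -0.05). Over all genes, 9.11% were higher and 10.4% lower in the first, and 11.3% and 8.82% in the second. The same shares and medians over all genes apply to the lists that follow. Trf, transferrin itself, was higher in both, at 3.79 against 1.70 in the Pla2g3 pair (4.26-fold) and 3.72 against 1.48 in the Lpar1 pair (4.72-fold). Its level without fibroblasts was 3.25 under the Pla2g3-/- label and 3.22 in Pla2g3+/+ cells, so the wild-type cocultures were the low arrays. Tfr2, the second transferrin receptor, was 3.11-fold higher on Lpar1-/- than on Lpar1+/+ fibroblasts.

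The reductases Steap1 and Steap2 were read almost wholly in coculture. Steap1 had -0.75 in the labelled Pla2g3-/- against 1.33 in the Pla2g3+/+ coculture, and -0.91 on Lpar1-/- against 1.70 on Lpar1+/+ fibroblasts, 4.22-fold and 6.11-fold lower. It was not well above background on either array without fibroblasts, and Steap4 was not above background on any array. Steap2 was 3.64-fold and 4.95-fold lower. The summed fibroblast markers on these 4 arrays, in the order given for Steap1, were 14.5, 33.0, 31.2 and 34.2. Their part in the difference was not tested.

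In storage, export and systemic control, 12 of 16 listed genes were compared between the Pla2g3 cocultures, with none higher and 3 lower (median -0.36), and 13 between the Lpar1 cocultures, with none higher and 3 lower (median -0.26). Cp, the ferroxidase ceruloplasmin, was 7.69-fold and 4.03-fold lower. Tmprss6, a protease that restrains hepcidin in liver, was at least 4.31-fold lower in the first and 3.63-fold lower in the second. Cp was also 35.3-fold higher in the Pla2g3+/+ coculture than in Pla2g3+/+ cells alone.

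In haem synthesis, transport and breakdown, 22 genes were compared in each pair, with none higher and 3 lower between the Pla2g3 cocultures (median -0.18) and 1 higher and 1 lower between the Lpar1 cocultures (median 0.09). Slc46a1, a transporter of folate and haem, was 3.87-fold and 7.19-fold lower. Hebp1, a haem-binding protein, was 3.35-fold lower in the first pair and 4.70-fold higher in the second, with levels of -5.57 and -3.83, and of -2.03 and -4.26. Its direction thus differed between the pairs.

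Iron-sulfur cluster assembly was nearly level. Of 27 genes compared in each pair, 1 was higher and 2 were lower between the Pla2g3 cocultures, and 1 was higher and 3 were lower between the Lpar1 cocultures, with a median of -0.22 in both. Bola1 was 2.46-fold and 2.77-fold higher. Nubp1, a cytosolic assembly factor, was 2.19-fold and 2.83-fold lower, and the mitochondrial chaperone Hspa9 was 2.00-fold and 2.07-fold lower. Slc25a37 (mitoferrin), which brings iron into mitochondria, differed by -0.25 and -0.31.

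Among 10 MYC and HIF regulators, 1 was higher and 3 were lower between the Pla2g3 cocultures (median -0.14), and 1 was higher and 2 were lower between the Lpar1 cocultures (median -0.19). Of the genes of ferroptosis and lipid peroxide control, which count Tfrc and Slc7a11 among them, 11 were compared, with 4 lower and none higher in the first pair (median -0.75) and 4 lower and 1 higher in the second (median -0.96). Chac1, a glutathione-degrading enzyme, was 5.54-fold and 4.03-fold lower. Ptgs2 was 2.72-fold higher with Lpar1-/- fibroblasts.

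**Figure D5:**
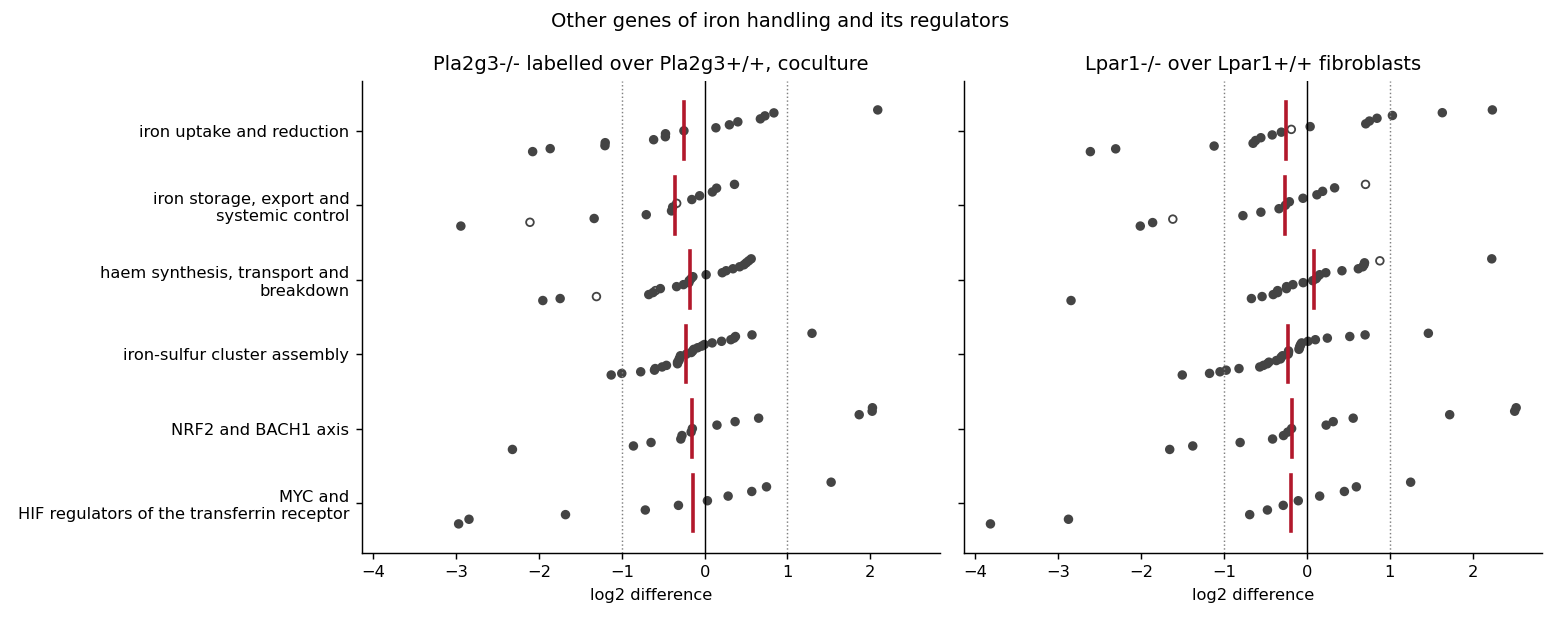
Log2 difference of every compared gene of 6 iron-related lists (points, open where the value is a bound) between the Pla2g3 cocultures and between the Lpar1 cocultures, with the median of each list as a red line. The medians lie between -0.36 and 0.09, and single genes such as Trf (2.09 and 2.24) stand far from the median of their list.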

How the data were processed

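The deposited spot intensity values came from Agilent Feature Extraction (12.1.1.1, per the submitters' processing notes) and had been background-subtracted by the authors, per the file headers. The authors' deposited table gives a linear signal, which equalled that intensity divided by the array's 75th percentile. Its column medians were 0.0448, 0.0439, 0.0483, 0.0428, 0.0338 and 0.0357 for the labelled Pla2g3-/-, Pla2g3+/+, Lpar1-/- and Lpar1+/+ cocultures and for the labelled Pla2g3-/- and Pla2g3+/+ cells alone, so scale and direction are known and no centring was found.

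From the intensity, log2 minus the 75th percentile over 43020 noncontrol spots was taken, after dropping 84 to 115 outlier spots per array, and spots of 1 probe were averaged (Python 3.11.15, numpy 2.4.6, pandas 2.3.3). Gene names came from accessions for 33002 spots, symbols for 3072, synonyms for 16 and the file for 6930. Genes entered a comparison if either array stood well above background, and counted from 2-fold. The probe with the highest mean stood for a gene. A dim array gave a bound. No test was possible with 1 array per group, so no p-value is given. Precision is limited by the small number of arrays. The steps were tested on simulated data.

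The members and the gene lists were chosen with earlier results of these data known. Text outside the 10 members names, per list, up to 3 genes per direction past 2-fold, 10 fixed genes, markers, and the 8 profiles nearest to Tfrc. C1qb was picked as an example after its values were seen. Alternatives were normexp correction with an offset of 50 (limma 3.58.1 in R 4.3.3), quantile normalization, the deposited table, the mean of probes, other filters on dim probes, kept outliers and the other wild-type coculture array. Sequences of promoters and the names are from RefSeq on GRCm38.p6, and probe sequences from the array files. Counts are given for every gene list but 2, which are not reported here.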

Additional observations from a re-analysis of the deposited data

Results flagged for a closer look

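For 3 members, an effect at the probe that stands for the gene had opposite signs in groups under the same contrast. None of these differences was tested, since each group is 1 array. Slc40a1 was higher by 0.68 in coculture than in cells alone under the Pla2g3-/- label and lower in Pla2g3+/+ cells (-2.18), a difference of 2.86. The 0.68 fell to 0.15 with normexp and 0.23 with quantile normalisation, within its spot error of 0.24. The same 4 arrays give a difference of 2.86 between the effect of the label in coculture (0.01) and without fibroblasts (-2.85). The 0.01 is within its spot error of 0.22 and has no direction. Ireb2 differed by -0.81 in coculture under the Pla2g3-/- label and by 0.55 in Pla2g3+/+ cells, a difference of -1.35. Ftl1 differed by 0.08 between the labels in coculture and by -0.11 without fibroblasts, a difference of 0.19 that is under the spot error of 0.29. At its dimmer probe the signs were the same, at 0.33 and 0.05.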

How the results depend on the processing

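Each value was recomputed under the alternatives named above, and no difference of a member that was past 2-fold changed its direction. Of the recomputed member differences, 482 moved by less than the spot error and 48 by more. The 48 came from normexp (22), the mean of probes (11), quantile normalisation (9) and the other wild-type coculture array (6). The filters on dim probes, kept outliers and the deposited table moved none. These filters could move none, since the probe that stands for each member was well above background on all 6 arrays. The deposited table holds the same intensity, rescaled. Counts of members past 2-fold changed by over 1.5 times in 3 cases. With the mean of probes, 0 members were higher in the labelled Pla2g3-/- than in the Pla2g3+/+ coculture, in place of 1. With normexp, 0 were higher in Pla2g3+/+ coculture than in cells alone, in place of 2, and 1 was lower under the Pla2g3-/- label without fibroblasts, in place of 2. The count changed by 1 in 4 further cases. Lower members were 2 in place of 3 between the Pla2g3 cocultures with normexp, 4 in place of 3 between the Lpar1 cocultures with the mean of probes, and 3 in place of 2 for the difference of the coculture effects, under quantile normalisation and also when the wild-type coculture array was replaced by its partner.

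Counts over all genes depended most on normexp, which draws dim values together by its offset. Higher and lower genes then numbered 1339 and 1210 between the Pla2g3 cocultures (2049 and 2346 before), 1115 and 914 for coculture under the Pla2g3-/- label (2547 and 1632), 1409 and 1037 for coculture in Pla2g3+/+ cells (2948 and 1700), and 23 and 94 for the labels without fibroblasts (95 and 347). Between the Lpar1 cocultures 1592 were higher (2770), and the coculture effects differed downward in 1100 (1773). Between the wild-type cocultures 4 were higher and 0 lower (193 and 43).

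Without a filter on dim probes, 4007 were lower between the Pla2g3 cocultures, 3205 for coculture under the Pla2g3-/- label and 4361 for the difference of the coculture effects. The numbers were then 722 higher and 994 lower for the labels without fibroblasts, and 1438 and 370 for the wild-type cocultures. With both arrays above background, 53 were higher for the labels without fibroblasts, and 83 higher and 23 lower for the wild-type cocultures. There, quantile normalisation gave 178 lower and the mean of probes 128. The share of higher genes in that pair was 81.8%, and 44.7% after quantile normalisation, 100% with normexp and 59.5% with the mean of probes.

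No paired analysis was possible because each group is 1 array, and leaving out a replicate was not possible for the same reason. Signal over background limits Slc11a1, Slc40a1, Aco1 and the third Tfrc probe most, with intensities of at most 111 units on the 6 arrays.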
